A study of Mus musculus with 20 samples.

Results

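Wnt ligands, Frizzled receptors, secreted Wnt inhibitors and a few genes that act with them were followed in whole mouse skin through IL-23-induced inflammation and its treatment with 2 Toll-like receptor antagonists. The members were all probe-sets whose single gene symbol starts with Wnt, Fzd, Sfrp or Dkk and then a digit, together with Wif1, Axin2, Lef1, Lgr5 and Lgr6. The rule found 84 probe-sets of 43 genes among 45101 probe-sets on the array, and 63 probe-sets of 35 genes passed the filter on low values. By role there were 19 ligand genes, 10 receptor genes, 9 genes of secreted inhibitors, 4 target and Lgr receptor genes, and Fzd10os, an antisense transcript that the naming rule brought in.

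The 20 arrays, 5 in each of 4 groups, came from female C57BL/6 mice bought at 6 weeks of age and housed for 1 week. Naïve mice received nothing. The other 15 mice received 3 µg of IL-23 a day by intradermal injection into the dorsum from day 1 to day 4, and on days 4, 5 and 6 a subcutaneous injection, away from the IL-23 site, of saline (PBS in the study's methods) or of 15 mg/kg of IMO-3100 or IMO-8400. IMO-3100 is described as an antagonist of TLR7 and TLR9, and IMO-8400 as an antagonist of TLR7, TLR8 and TLR9. Skin was taken on day 7, at the injection site in the mice that received IL-23, and each array held 1 mouse. The methods do not say where the naïve skin was taken. IL-23 was injected in all groups but the naïve one, so that the naïve mice differ from the saline mice in the cytokine and in the injections, and these cannot be told apart here.

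Wnt proteins are secreted lipid-modified ligands that bind a Frizzled receptor together with the co-receptor Lrp5 or Lrp6, which spares beta-catenin from breakdown and lets it act in the nucleus with transcription factors such as Lef1. Secreted frizzled-related proteins (Sfrp) and Wif1 bind the ligands outside the cell, Dkk proteins act on the co-receptor, and Axin2 is a feedback inhibitor whose own transcription follows beta-catenin activity. In skin the pathway is best known for the formation and cycling of hair follicles, and Lgr5 and Lgr6 are R-spondin receptors that mark follicle stem cells.

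Deposited values were GCRMA log2 intensities, in which a difference of 1 is a change of 2-fold and values below 3 were treated as near background. Array medians lay between 6.086 and 6.286. Krt5, Krt14, Krt10, Col1a1 and Col3a1, which mark epidermis and dermis, stayed above 13.4 in every mouse. The naïve mice were not alike: the mean of 22 hair shaft and root sheath genes was 13.0 in naïve mouse 16, 11.7 in mouse 17, 9.51 in mouse 18, 4.84 in mouse 19 and 3.79 in mouse 20. In the saline mice the same mean lay between 3.25 and 3.62, in the IMO-3100 mice between 3.28 and 3.68, and in the IMO-8400 mice between 3.57 and 6.50, the last in mouse 5 alone. Of the 22 genes, 16 were below 3 in every saline mouse and 16 in every IMO-3100 mouse, so the means of these groups lay close to background. Because the naïve mice differed, calls made against them are given also without naïve mice 16 and 17.

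Most other marker lists also differed between groups. The mean of 8 adipocyte genes was 12.0 to 12.4 in naïve, 9.40 to 10.7 in saline, 11.0 to 11.6 in IMO-3100 and 11.2 to 11.7 in IMO-8400 mice. The mean of 10 genes of the hair follicle bulge and secondary germ was 10.4 to 11.0, 9.21 to 9.99, 9.83 to 10.1 and 9.90 to 10.7 in the same order, and that of 9 macrophage and neutrophil genes was 8.25 to 10.6, 12.2 to 12.5, 11.6 to 12.1 and 10.9 to 11.8. Again in that order, 8 T cell genes had a mean of 5.69 to 7.76, 8.97 to 9.50, 8.10 to 8.76 and 8.46 to 8.97, and 7 melanocyte genes one of 6.73 to 12.0, 5.07 to 5.66, 4.83 to 5.92 and 5.20 to 6.14. Dermal papilla genes (12) lay at 6.47 to 6.88, 5.86 to 6.24, 5.48 to 6.01 and 5.97 to 6.14, sebaceous gland genes (7) at 11.3 to 11.6, 10.9 to 11.1, 10.8 to 11.2 and 11.0 to 11.6, and skeletal muscle genes (10) at 13.6 to 14.6, 13.4 to 14.0, 13.8 to 14.3 and 14.2 to 14.5. Endothelial genes (10) lay at 7.64 to 9.00, 8.37 to 8.61, 7.87 to 8.36 and 8.46 to 8.82, without overlap between the antagonists. Over all 20 mice the lists of epidermal keratinocytes and dermal fibroblasts stayed between 13.7 and 14.1 and between 12.7 and 13.6. These values stand beside every comparison that follows, and their part in it was not tested. In whole skin, fewer cells of a type and less RNA per cell cannot be told apart.

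**Figure D1:**
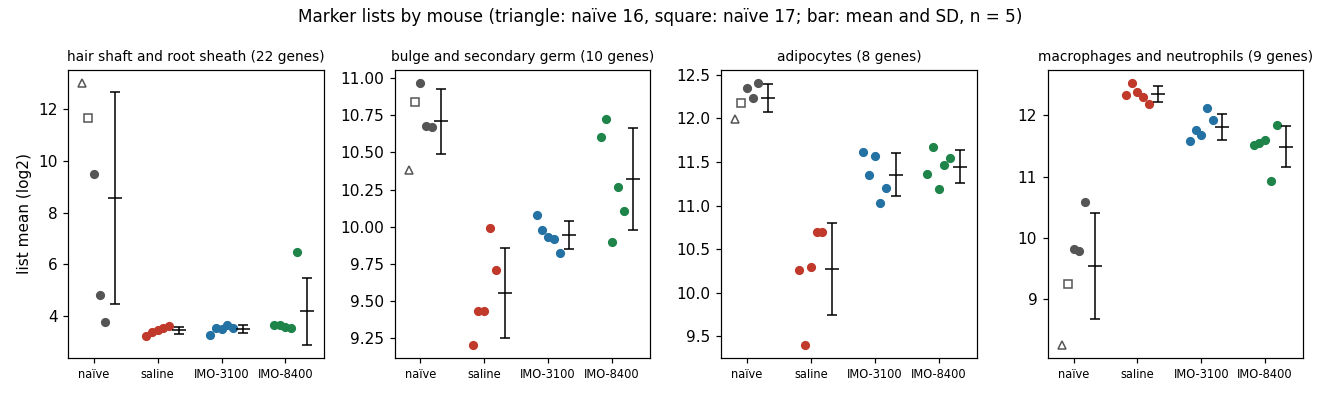
Mean log2 value of 4 marker lists in each mouse, by group, with the group mean and SD (n = 5). The hair shaft list ran from 3.79 to 13.0 among naïve mice, highest in mice 16 (triangle) and 17 (square), while the adipocyte list was lowest in the saline mice and between saline and naïve in both antagonist groups.

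After IL-23 and saline, each role held genes that fell against naïve skin and genes that did not pass the test, except that all 4 target and Lgr receptor genes and Fzd10os fell. At a false discovery rate (FDR) under 0.05 and a fold over 2, 29 of 63 member probe-sets fell, where 8.92% of all 30960 tested probe-sets did, and 1 rose, where 7.58% of all did. By gene, with the probe-set of the highest mean standing for each, 18 of 35 fell: Wnt3, Wnt5a, Wnt5b and Wnt9a among ligands, Fzd1, Fzd2, Fzd4, Fzd5 and Fzd7 among receptors, Dkk2, Dkk3, Sfrp5 and Wif1 among inhibitors, Axin2, Lef1, Lgr5 and Lgr6, and Fzd10os. Wnt16 alone rose. The median log2 difference over the 63 probe-sets was -0.96, against -0.04 over all tested, and 56 of 63 lay below 0. Of the 63, 7 passed the filter only through the naïve arrays. They were selected on naïve values, so the direction of their difference was largely fixed by that selection. Among the other 56, 28 fell and 1 rose, the median was -1.06, and 49 lay below 0.

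The count depended on which naïve mice were used. Naïve mouse 16 held the highest value of all 20 arrays at 42 of the 63 member probe-sets, or 66.7%, and at 20.5% of all tested probe-sets. Without naïve mice 16 and 17, 16 member probe-sets fell, where 8.9% of all tested probe-sets did, and none rose by limma, where 6.78% of all did (1 was higher at an unadjusted p under 0.05). All 16 were among the 29. Of the 18 genes, 10 kept the call: Wnt3, Wnt5b, Fzd2, Fzd4, Fzd7, Dkk2, Sfrp5, Axin2, Lgr5 and Lgr6. Without naïve mouse 16 alone, Wnt5a, Wnt9a, Fzd1, Fzd5 and Fzd10os were no longer called, at -0.87, -0.998, -0.93, -0.86 and -0.75. With the hair list as a covariate, Wnt5b (-1.30, limma adjusted p = 0.0516) and Lgr5 (-1.03, limma adjusted p = 0.109) of the 10 were not called either.

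**Figure D2:**
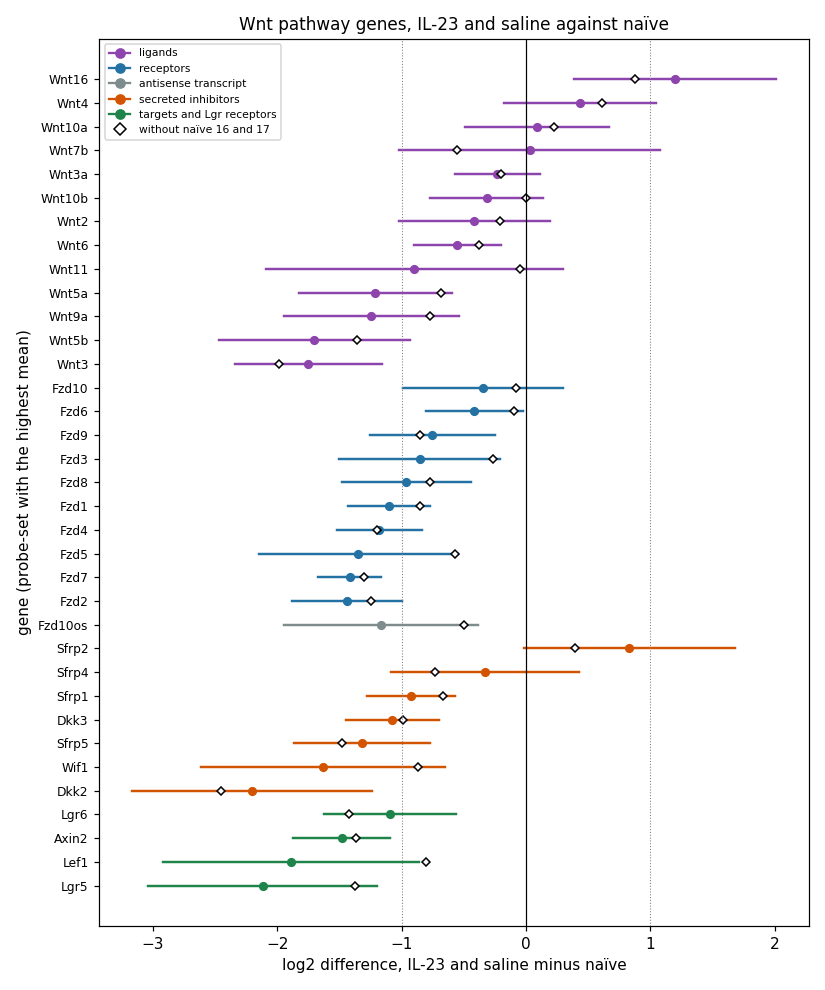
Log2 difference between saline and naïve skin for the 35 tested genes, by role. Filled circles with lines are the estimate over 5 mice a group with its 95% interval, open diamonds the estimate without naïve mice 16 and 17, and dotted lines a 2-fold change. Lef1 moved from -1.89 to -0.81 and Fzd5 from -1.35 to -0.57 without those mice, while Dkk2 went from -2.20 to -2.45 and Wnt3 from -1.75 to -1.98.

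Promoter sequences of Wnt3, Dkk2, Axin2 and Fzd7 are shown because these genes span the 4 roles, and each fell with or without naïve mice 16 and 17. They are the 250 bases before the annotated start, on the coding strand, from RefSeq on GRCm38.p6, which may differ from the build behind the array. Capitals mark the TCF/LEF letters, which are CTTTGTT or else CTTTGAT or else CTTTGAA, on either strand. Of 35 promoters found for 29 member genes, 4 held a match, at Dkk1, Fzd7, Wnt11 and Wnt5b, and 12% of 32851 promoters in the table did. Wnt3 lies at chr11:103773925-103774174 (plus strand), with a GC content of 68%, Dkk2 at chr3:132085042-132085291 (plus, 55.6%), Axin2 at chr11:108920099-108920348 (plus, 69.2%) and Fzd7 at chr1:59481897-59482146 (plus, 65.2%), and the median over all promoters was 52.4%.
Wnt3: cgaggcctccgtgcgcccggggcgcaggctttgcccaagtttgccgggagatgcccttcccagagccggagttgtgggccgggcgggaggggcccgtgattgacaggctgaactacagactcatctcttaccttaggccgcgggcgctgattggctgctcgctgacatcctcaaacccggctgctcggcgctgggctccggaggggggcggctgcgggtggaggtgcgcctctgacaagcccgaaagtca
Dkk2: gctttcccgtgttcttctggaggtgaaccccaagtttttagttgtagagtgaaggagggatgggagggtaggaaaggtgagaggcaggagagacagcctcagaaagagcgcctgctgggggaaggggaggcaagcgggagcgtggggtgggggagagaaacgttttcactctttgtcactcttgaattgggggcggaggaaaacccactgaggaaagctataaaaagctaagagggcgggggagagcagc
Axin2: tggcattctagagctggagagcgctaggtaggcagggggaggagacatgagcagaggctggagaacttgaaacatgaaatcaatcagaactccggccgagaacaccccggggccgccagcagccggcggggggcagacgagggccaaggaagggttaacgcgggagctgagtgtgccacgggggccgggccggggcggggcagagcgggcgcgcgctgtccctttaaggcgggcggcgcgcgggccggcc
Fzd7: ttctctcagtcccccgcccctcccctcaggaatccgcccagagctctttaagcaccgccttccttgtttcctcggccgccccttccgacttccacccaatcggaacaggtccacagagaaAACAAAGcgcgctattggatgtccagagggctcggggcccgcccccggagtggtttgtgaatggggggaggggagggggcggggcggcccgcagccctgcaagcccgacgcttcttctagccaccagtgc
The match of Fzd7 reads AACAAAG and starts 130 bases before the gene. No array value bears on whether these letters are bound.

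Among the ligands, Wnt3, which signals through beta-catenin, fell with or without naïve mice 16 and 17. Its probe-set 1450763_x_at read 8.72, 9.38, 9.87, 9.79 and 9.25 in naïve mice 16 to 20, 6.41, 7.90, 7.71, 8.27 and 7.97 in saline mice 11 to 15, 8.87, 9.08, 9.13, 9.69 and 9.15 in IMO-3100 mice 6 to 10 and 9.12, 9.17, 9.31, 9.71 and 9.39 in IMO-8400 mice 1 to 5. All saline values lay below those of the other 3 groups, and naïve mouse 16 was the lowest of its group. The mean was 9.40 ± 0.46 (SD, n = 5) in naïve and 7.65 ± 0.72 in saline skin, a difference of -1.75 (SE 0.28, limma adjusted p = 9.14e-05), and without mice 16 and 17 it was -1.98.

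Wnt5a and Wnt5b, ligands best known for signalling that does not pass through beta-catenin, fell as well. Wnt5b (1439373_x_at) read 9.56, 8.41, 8.09, 8.47 and 7.80 in naïve mice, 6.91, 6.52, 5.74, 7.29 and 7.37 in saline, 7.51, 7.28, 6.20, 6.09 and 6.33 in IMO-3100 and 8.29, 7.83, 7.58, 7.43 and 7.13 in IMO-8400 mice. Naïve and saline values did not overlap, and the IMO-3100 mice spanned about the range of the saline mice. The difference was -1.70 (SE 0.37, limma adjusted p = 0.00116) and -1.36 without naïve mice 16 and 17. Wnt5a (1436791_at) read 11.25, 10.09, 9.42, 9.48 and 9.14 in naïve, 8.32, 8.68, 8.84, 8.66 and 8.82 in saline, 8.82, 8.89, 8.91, 8.66 and 8.68 in IMO-3100 and 8.47, 8.33, 8.68, 9.42 and 8.56 in IMO-8400 mice. Naïve mouse 16 was the highest, and IMO-8400 mouse 4 was the only treated mouse in the naïve range. Its difference of -1.21 (limma adjusted p = 0.00278) became -0.68 without mice 16 and 17, which passed the FDR (adjusted p = 0.00919) but not the 2-fold threshold. The other 3 Wnt5a probe-sets fell in both cases, 1437673_at by 2.44 and 1448818_at by 1.57 on the log2 scale with all mice, and by 1.63 and 1.07 without mice 16 and 17. At the third, 1456976_at, all saline values were below 3, and saline skin was at least 4.45-fold lower with all mice when set at a value of 3. Naïve mice 16 and 17 read 8.41 and 5.97 there, and naïve mice 18 to 20 read 4.65, 3.88 and 2.86. Without mice 16 and 17 the difference was -1.37, with naïve values nearer to background.

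Wnt9a (1436978_at) read 8.54, 7.99, 7.37, 6.53 and 7.35 in naïve, 5.56, 5.61, 6.26, 6.86 and 7.28 in saline, 7.17, 6.86, 7.10, 6.92 and 7.27 in IMO-3100 and 7.91, 7.57, 7.65, 7.21 and 7.21 in IMO-8400 mice. The naïve and saline ranges overlapped, through naïve mouse 19 and saline mice 14 and 15. Its difference was -1.24 (limma adjusted p = 0.00606), and -0.77 without naïve mice 16 and 17 (adjusted p = 0.0721).

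Wnt16, a ligand expressed in skin and bone, was the single member that rose. Its probe-set 1422941_at read 2.94, 5.17, 5.16, 4.29 and 5.15 in naïve, 6.03, 6.40, 5.73, 5.34 and 5.20 in saline, 5.03, 5.18, 5.20, 5.69 and 6.76 in IMO-3100 and 6.29, 6.48, 6.53, 6.56 and 6.65 in IMO-8400 mice. The lowest saline mouse stood just above the highest naïve mouse, and naïve mouse 16 was below 3. The rise of 1.20 (limma adjusted p = 0.0179) was 0.87 and not called without naïve mice 16 and 17, and 0.80 and 1.03, again not called, without naïve mouse 16 or saline mouse 12.

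The other 8 tested ligand genes passed neither way. Wnt4 and Wnt10a, which are expressed in epidermis and hair follicles, differed by 0.43 and 0.09, and Wnt7b, Wnt3a, Wnt2 and Wnt6 by 0.03, -0.23, -0.41 and -0.55. Wnt6 passed the FDR but not the 2-fold threshold (limma adjusted p = 0.0114). Wnt11 and Wnt10b were above 3 in naïve mouse 16 alone, at 6.38 and 3.61, and below 3 in the other 19 arrays. For Wnt1, Wnt2b, Wnt7a, Wnt8a, Wnt8b and Wnt9b, and for the inhibitors Dkk1 and Dkk4, no probe-set passed the filter, and all 21 member probe-sets left out were below 3 in every array.

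Fzd7, a Frizzled receptor, gave the smallest adjusted p of all members. Fzd7 (1450044_at) read 12.67, 12.68, 12.38, 12.31 and 12.50 in naïve, 10.88, 11.00, 10.95, 11.32 and 11.31 in saline, 11.94, 11.63, 12.07, 11.74 and 11.67 in IMO-3100 and 11.84, 12.18, 11.97, 12.25 and 11.89 in IMO-8400 mice. The naïve mice were above and the saline mice below every treated mouse. Its mean went from 12.51 ± 0.17 (SD, n = 5) to 11.09 ± 0.21, a difference of -1.42 (SE 0.12, limma adjusted p = 1.07e-07) and -1.31 without naïve mice 16 and 17.

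Fzd2 and Fzd4 fell by like amounts. Fzd2 (1418534_at) read 12.51, 12.33, 12.02, 11.83 and 11.95 in naïve, 10.29, 10.48, 10.29, 11.18 and 11.19 in saline, 11.12, 10.88, 10.76, 10.68 and 10.49 in IMO-3100 and 11.55, 11.54, 10.74, 11.03 and 11.06 in IMO-8400 mice, with a difference of -1.44 (limma adjusted p = 3.42e-05). Fzd4 (1434756_at), which is also the receptor of norrin, read 11.63, 11.83, 11.78, 11.53 and 12.02 in naïve, 10.76, 10.10, 10.34, 10.64 and 11.06 in saline, 11.46, 10.83, 11.06, 10.86 and 10.71 in IMO-3100 and 11.07, 11.21, 10.99, 11.29 and 11.16 in IMO-8400 mice, with a difference of -1.18 (limma adjusted p = 2.05e-05). At both genes every naïve mouse lay above every saline mouse, and both kept the call without naïve mice 16 and 17, at -1.24 and -1.20. Their dimmer probe-sets were not called (2 of 3 at each gene).

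Fzd5 and Fzd1 depended on the 2 naïve mice. Fzd5 (1455604_at) read 12.02, 10.41, 9.69, 9.02 and 9.10 in naïve, 8.52, 8.81, 8.80, 8.42 and 8.94 in saline, 8.58, 8.68, 8.22, 8.45 and 8.09 in IMO-3100 and 9.03, 9.10, 8.92, 9.02 and 8.96 in IMO-8400 mice. Naïve mice 19 and 20 were just above the highest saline mouse, and mouse 16 far above it. The difference of -1.35 (limma adjusted p = 0.0081) became -0.57. At Fzd1 (1437284_at) the naïve mice read 12.41 to 13.38 and the saline mice 11.44 to 11.84, and the difference of -1.10 became -0.85. Both passed the FDR without the 2 mice, but not the 2-fold threshold.

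Fzd3, a receptor of the planar polarity arm, was split between its 6 tested probe-sets. The brightest, 1449730_s_at, was not called (difference -0.85), and outside naïve mice 16 and 17 it stayed between 5.77 and 6.68. At 1434788_at the values were 9.09, 8.09, 7.22, 7.19 and 6.67 in naïve, 4.50, 3.42, 4.95, 4.99 and 4.07 in saline, 6.41, 5.62, 5.86, 5.44 and 4.93 in IMO-3100 and 6.14, 6.88, 5.86, 6.29 and 5.83 in IMO-8400 mice. Naïve and saline mice did not overlap, and the difference of -3.26 (SE 0.40, limma adjusted p = 6.21e-06) was the largest of any member probe-set. It was -2.64 without naïve mice 16 and 17, when the 2 other probe-sets that had fallen, 1438101_at and 1450135_at, were no longer called. The first of these, 1438101_at, was among the 7 that passed the filter only through the naïve arrays. It was below 3 in every saline, IMO-3100 and IMO-8400 mouse, so the direction of its difference was largely fixed by that selection. Which transcripts these probe-sets detect was not examined.

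Fzd6, Fzd8, Fzd9 and Fzd10 were not called, with differences of -0.41, -0.96, -0.75 and -0.34. Fzd9 was below 3 in all 5 saline mice. Fzd10os (1441338_at) fell by 1.17 on the log2 scale with all mice, and differed by -0.50 without naïve mice 16 and 17 (limma adjusted p = 0.135).

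Of the secreted inhibitors, Dkk2, which binds the Lrp5 and Lrp6 co-receptors, fell most. Dkk2 (1420512_at) read 7.54, 9.45, 9.57, 8.63 and 9.14 in naïve, 7.29, 6.40, 4.94, 7.31 and 7.38 in saline, 9.40, 8.37, 7.90, 7.57 and 7.92 in IMO-3100 and 9.26, 9.36, 8.59, 9.09 and 8.62 in IMO-8400 mice. All saline mice were below all others, though naïve mouse 16 exceeded the highest of them only slightly. The mean went from 8.87 ± 0.83 (SD, n = 5) to 6.66 ± 1.05, a difference of -2.20 (SE 0.46, limma adjusted p = 0.000923) and of -2.45 without mice 16 and 17.

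Sfrp5, a ligand-binding inhibitor, read 5.51, 6.32, 7.17, 6.17 and 5.63 in naïve, 5.06, 4.51, 4.58, 5.49 and 4.58 in saline, 5.89, 5.62, 5.62, 5.49 and 5.37 in IMO-3100 and 5.99, 5.82, 6.43, 5.62 and 5.75 in IMO-8400 mice (1436075_at). Saline mouse 14 came just below the lowest naïve mouse, and the other saline mice lay lower. Its difference was -1.32 (limma adjusted p = 0.000591), and -1.48 without naïve mice 16 and 17. Dkk3, a member of the Dkk family whose effect on Wnt signalling is less settled, read 11.22, 11.43, 11.52, 10.74 and 11.05 in naïve, 10.04, 10.16, 9.99, 9.96 and 10.45 in saline, 11.01, 10.30, 10.15, 10.04 and 10.21 in IMO-3100 and 11.28, 11.36, 10.83, 11.03 and 10.91 in IMO-8400 mice (1417312_at). Naïve and saline mice did not overlap, and the difference of -1.07 (limma adjusted p = 0.000124) came to -0.99, just under 2-fold, without naïve mice 16 and 17 and again without naïve mouse 18 alone.

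Wif1, which binds Wnt ligands, had the same order as the hair list among the naïve mice. Other members had that order too, among them Axin2 (1436845_at), Lef1 (1454734_at) and Fzd6 (1417301_at). Wif1 (1425425_a_at) read 7.94, 5.70, 5.12, 5.08 and 4.53 in naïve, 3.20, 4.16, 4.14, 4.13 and 4.57 in saline, 4.14, 4.11, 4.10, 3.26 and 2.84 in IMO-3100 and 4.14, 4.18, 3.61, 4.46 and 4.14 in IMO-8400 mice. The lowest naïve mouse was in the saline range. The difference of -1.63 (limma adjusted p = 0.00875) became -0.87.

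Sfrp1 had 5 tested probe-sets, of which 3 fell and 2, among them the brightest (1428136_at, -0.92), did not reach 2-fold. Only 1460187_at of the 3 kept the call without naïve mice 16 and 17, at -1.16. Sfrp2 and Sfrp4, which dermal fibroblasts express, were not called, with differences of 0.83 and -0.33. At both, naïve mouse 16 was the lowest of its group (9.19 at Sfrp2 and 8.60 at Sfrp4).

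Axin2, the feedback inhibitor and target of beta-catenin, fell from 10.78 ± 0.19 (SD, n = 5) in naïve to 9.30 ± 0.50 in saline skin at 1436845_at. Its values were 11.02, 10.87, 10.82, 10.61 and 10.57 in naïve, 8.51, 9.14, 9.42, 9.70 and 9.70 in saline, 9.86, 9.87, 10.25, 9.85 and 10.16 in IMO-3100 and 10.81, 10.85, 10.52, 10.84 and 10.39 in IMO-8400 mice. The saline mice were below all other mice, and the IMO-3100 mice below all naïve and all IMO-8400 mice. The difference was -1.48 (SE 0.19, limma adjusted p = 7.57e-06) and -1.37 without naïve mice 16 and 17. The dim second probe-set, 1421341_at, was below 3 in all saline mice and not called.

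Lgr6 and Lgr5 fell with or without the 2 naïve mice. Lgr6 (1436218_at), a marker of stem cells above the bulge, read 9.86, 10.78, 11.24, 11.23 and 10.99 in naïve, 8.97, 9.44, 9.78, 10.39 and 10.06 in saline, 10.65, 10.77, 10.79, 10.58 and 10.79 in IMO-3100 and 11.18, 11.02, 10.73, 11.31 and 10.78 in IMO-8400 mice. Naïve mouse 16 was low enough to overlap the saline mice, and the difference of -1.09 (limma adjusted p = 0.00203) grew to -1.43 without mice 16 and 17. It came to -0.90, -0.99 or -0.99 without saline mouse 11, naïve mouse 18 or naïve mouse 19, under 2-fold. The dimmer Lgr6 probe-set, 1427028_at, was not called, at -0.16 with all mice and -0.42 without naïve mice 16 and 17.

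Lgr5 (1450988_at), a marker of cycling follicle stem cells, read 9.27, 7.88, 7.16, 6.08 and 6.89 in naïve, 5.21, 5.00, 4.75, 5.62 and 6.09 in saline, 5.67, 5.37, 4.64, 5.55 and 6.01 in IMO-3100 and 6.93, 6.89, 6.40, 6.16 and 5.96 in IMO-8400 mice. Saline mouse 15 and naïve mouse 19 met at about the same value, and the difference was -2.12 (limma adjusted p = 0.000835), or -1.37 without naïve mice 16 and 17. Its second probe-set, 1444519_at, read 7.73, 6.77, 6.33, 5.85 and 7.05, 5.69, 4.94, 3.33, 4.68 and 4.10, 2.76, 3.17, 3.37, 3.62 and 4.27 and 6.69, 6.53, 5.04, 4.97 and 5.30 in the same order of groups, with no overlap of naïve and saline mice and a difference of -2.20, or -1.86 without naïve mice 16 and 17.

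Lef1, the transcription factor that partners beta-catenin, varied widely among naïve mice. Lef1 (1454734_at) read 12.39, 11.21, 9.37, 9.05 and 8.87 in naïve, 8.33, 8.69, 8.64, 7.62 and 8.14 in saline, 7.37, 7.99, 7.26, 7.61 and 7.72 in IMO-3100 and 8.44, 8.48, 8.00, 8.18 and 8.57 in IMO-8400 mice. Naïve mouse 20 was just above the highest saline mouse, and mouse 16 far above it. Its difference of -1.89 (SE 0.49, limma adjusted p = 0.00466) was -0.81 without mice 16 and 17 (adjusted p = 0.00914, under 2-fold). The second probe-set, 1421299_a_at, exceeded 3 in naïve mice 16 and 17 alone.

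**Figure D3:**
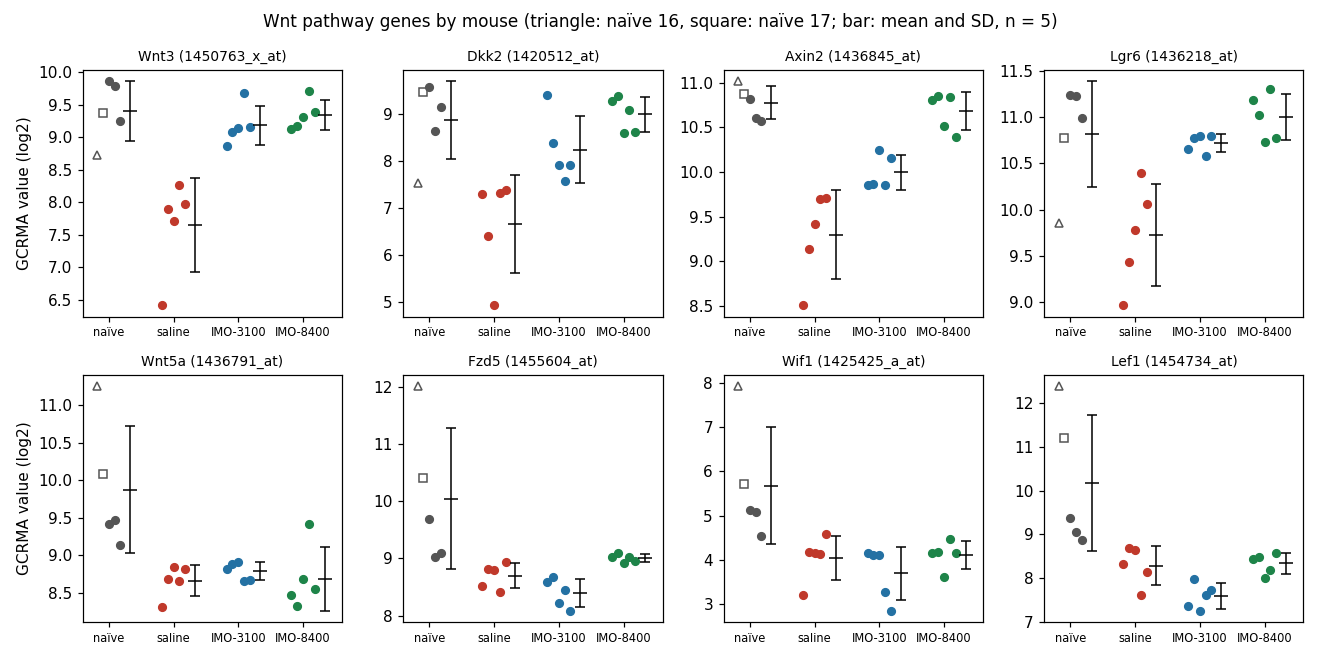
GCRMA log2 value in each mouse for 8 genes, with the group mean and SD (n = 5). In the upper row the saline mice sat below naïve and treated mice, except that naïve mouse 16 (triangle) lay among the saline mice at Lgr6, and it was also the lowest naïve mouse at Wnt3 and Dkk2. In the lower row naïve mouse 16 was highest, as at Lef1 (12.39), and each saline mean was below the naïve mean.

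The antagonist groups addressed which of these differences were smaller when the IL-23 mice received IMO-3100 or IMO-8400. Against saline, 3 of 63 member probe-sets rose with IMO-3100, where 2.69% of all tested did, and none fell by limma, where 3.73% of all did (7 were lower at an unadjusted p under 0.05). With IMO-8400, 7 of 63 rose, where 4.46% of all did, and none fell by limma, where 3.59% of all did (2 were lower at an unadjusted p under 0.05). The median difference over members was 0 for IMO-3100 and 0.31 for IMO-8400, against 0.01 over all tested for each. The genes called were Wnt3 and Dkk2 with IMO-3100, and Wnt3, Wnt9a, Dkk2, Sfrp5, Axin2 and Lgr6 with IMO-8400, and in both groups the Fzd3 probe-set 1434788_at. All of them were among those lower in saline than in naïve skin. The comparisons share the saline mice, so a low saline value enters each of them.

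Wnt3 rose with both agents, to 9.18 ± 0.30 (SD, n = 5) with IMO-3100 and 9.34 ± 0.23 with IMO-8400. The differences from saline were 1.53 (SE 0.28, limma adjusted p = 0.00101) and 1.69 (limma adjusted p = 0.000419), and every treated mouse was above every saline mouse. Saline mouse 11 was the lowest of all, and the call held without it for both agents. Against naïve skin the 2 groups differed by -0.22 and -0.06, not called.

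Dkk2 rose to 8.23 ± 0.71 (SD, n = 5) with IMO-3100 and 8.98 ± 0.36 with IMO-8400. The differences were 1.57 (limma adjusted p = 0.0178) and 2.32 (limma adjusted p = 0.00149). IMO-3100 mouse 6, at 9.40, was the highest of its group, and without it the IMO-3100 difference was 1.28 and not called, nor was the 1.14 left without saline mouse 13, the lowest at 4.94 (limma adjusted p = 0.0509 and 0.0521, and 0.0144 to 0.0521 over all alternatives). Nor was it called in a fit of these 2 groups alone (limma adjusted p = 0.0512). The IMO-8400 difference was called without any 1 mouse.

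Axin2 rose by 1.39 (SE 0.19, limma adjusted p = 7.77e-05) with IMO-8400, to 10.68 ± 0.21 (SD, n = 5). With IMO-3100 it differed by 0.70, which passed the FDR (limma adjusted p = 0.0102) but not the 2-fold threshold. The dim probe-set 1421341_at had differences in the same direction, 0.45 and 0.86, both past the FDR and under 2-fold. Against naïve skin, Axin2 was -0.78 with IMO-3100 (limma adjusted p = 0.00491, under 2-fold) and -0.10 with IMO-8400.

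Lgr6 rose by 1.28 with IMO-8400 (limma adjusted p = 0.00145), and with IMO-3100 it differed by 0.99 (limma adjusted p = 0.00829), just under 2-fold. Its dimmer probe-set 1427028_at was not called with either agent. The means there were 5.93 in saline, 5.93 in IMO-3100 and 6.42 in IMO-8400 mice. Sfrp5 rose by 1.08 with IMO-8400 (limma adjusted p = 0.00551) and differed by 0.76 with IMO-3100, under 2-fold. Its rise with IMO-8400 was 0.95 and 0.995, just under 2-fold, without IMO-8400 mouse 3 or saline mouse 12, and 0.97 after quantile normalization of the arrays. Wnt9a rose by 1.20 with IMO-8400 (limma adjusted p = 0.0133), with an overlap of the 2 ranges through saline mouse 15, and differed by 0.75 with IMO-3100. The Fzd3 probe-set 1434788_at rose by 1.26 and 1.81 (limma adjusted p = 0.0265 and 0.00313), with both groups still below the naïve mean of 7.65.

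Fzd7 passed the FDR with both agents and stayed under 2-fold, at 0.72 (limma adjusted p = 0.000539) and 0.93 (limma adjusted p = 6.07e-05). Dkk3 did so with IMO-8400 at 0.97, and Fzd1, Fzd4 and Fzd6 at 0.51, 0.56 and 0.55. Lower values with IMO-3100 that passed the FDR but not the fold were those of Wnt4 at -0.98 and of the Sfrp1 probe-set 1416594_at at -0.82.

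Wnt5a, Lef1 and Wif1 passed no threshold between the antagonist and saline groups. With IMO-3100 and IMO-8400 the differences from saline were 0.13 and 0.03 at Wnt5a, -0.70 and 0.05 at Lef1, and -0.35 and 0.06 at Wif1. None was called, and the 95% intervals at Lef1 ran from -1.73 to 0.33 and from -0.98 to 1.08, wide enough to hold a 2-fold change.

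**Figure D4:**
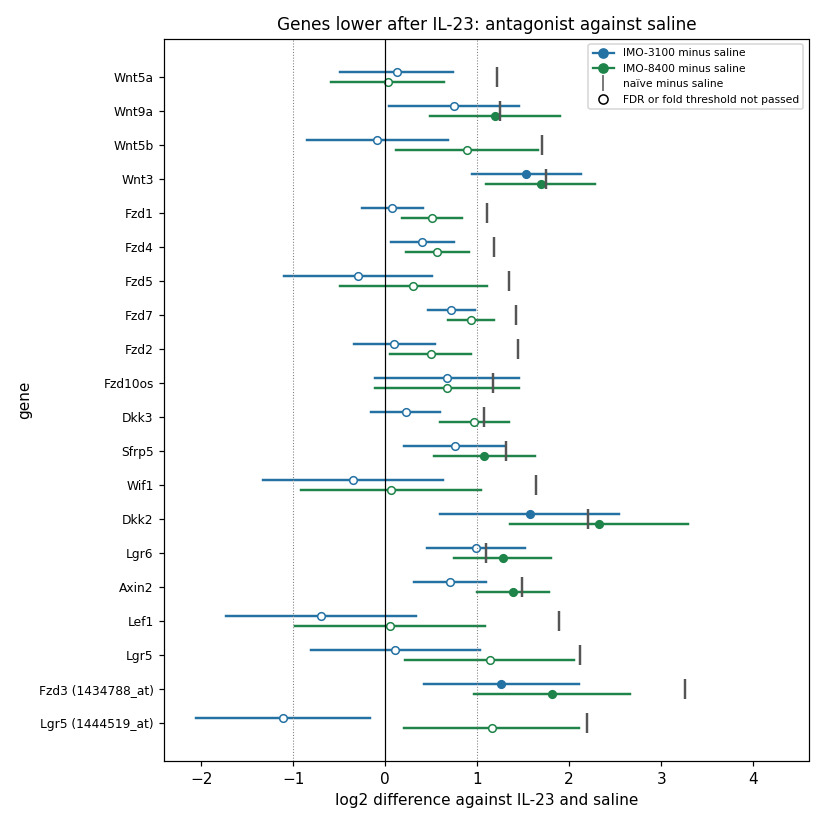
Log2 difference of IMO-3100 and IMO-8400 from saline, with 95% intervals, for the 18 genes that were lower in saline than in naïve skin and for 2 further probe-sets of Fzd3 and Lgr5. Filled points passed FDR and fold, open points did not, and grey ticks mark naïve minus saline. Wnt3 and Dkk2 were filled for both agents, and the IMO-8400 estimate of Dkk2 (2.32) passed the tick at 2.20.

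Compared directly at the same dose and times, IMO-8400 and IMO-3100 differed at 1 of 63 member probe-sets, which was higher with IMO-8400. Over all tested probe-sets 0.333% were higher and 0.245% lower with IMO-8400. The one was Lgr5 at 1444519_at, with a mean of 5.70 ± 0.84 (SD, n = 5) against 3.44 ± 0.56, a difference of 2.27 (SE 0.45, limma adjusted p = 0.0141) and no overlap. Saline mice, at 3.33 to 5.69, overlapped both. At the brighter Lgr5 probe-set the difference was 1.02 (95% interval 0.11 to 1.94, limma adjusted p = 0.184), not called. The endothelial list lay at 7.87 to 8.36 with IMO-3100 and at 8.46 to 8.82 with IMO-8400, and its part in these differences was not tested.

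Axin2 and Dkk3 passed the FDR between the agents but not the 2-fold threshold, at 0.69 (95% interval 0.30 to 1.08, limma adjusted p = 0.0472) and 0.74 (0.37 to 1.12, limma adjusted p = 0.031). The 5 IMO-8400 mice were above all IMO-3100 mice at Axin2, and at Dkk3 IMO-3100 mouse 6 was inside the IMO-8400 range. For Wnt3 and Dkk2 the difference between agents was 0.16 and 0.75, not called. In all, 52 of 63 member probe-sets had the higher mean with IMO-8400, against 54.5% of all tested. At the FDR alone, 3 of the 63 were higher and 0 lower, where 563 and 600 of all 30960 tested probe-sets were.

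Relative to naïve skin, 23 member probe-sets were lower with IMO-3100 and none higher by limma, where 4.55% and 4.9% of all tested were lower and higher (1 member was higher at an unadjusted p under 0.05). With IMO-8400, 11 were lower and 1 higher, where 2.43% and 3.6% of all were. Among the 56 members that pass the filter without the naïve arrays, 22 and 10 were lower and 0 and 1 higher. At the level of genes, 10 were lower with IMO-3100: Wnt5a, Wnt5b, Fzd1, Fzd2, Fzd5, Fzd8, Sfrp1, Wif1, Lef1 and Lgr5. With IMO-8400 they were Wnt5a, Sfrp4, Wif1 and Lef1. Without naïve mouse 16 the calls of Wnt5a with both agents (-0.74 and -0.84) and of Fzd1 (-0.86) and Sfrp1 (-0.97) with IMO-3100 were lost. That of Fzd1 was also lost without IMO-3100 mouse 7 (-0.997) or 10 (-0.96), and that of Wif1 with IMO-8400 without IMO-8400 mouse 1 (-1.58) or 3 (-1.45) or naïve mouse 17 (-1.56). These counts use the naïve mice again, and without naïve mice 16 and 17 they came to 15 lower and 0 higher with IMO-3100, where 4.14% and 3.37% of all tested were (0 members were higher at an unadjusted p under 0.05 by limma), and to 5 lower and 1 higher with IMO-8400, where 2.27% and 2.75% of all were. Of the genes, Wnt5b (-1.44), Fzd2 (-1.15), Fzd8 (-1.07), Wif1 (-1.22), Lef1 (-1.503) and Lgr5 (-1.26) then kept the call with IMO-3100, and Sfrp4 (-1.65) alone with IMO-8400. With the hair list as a covariate, Wnt5b (-1.39), Fzd8 (-0.86), Wif1 (-0.79), Lef1 (-0.98) and Lgr5 (-0.93) lost the IMO-3100 call. Their limma adjusted p was 0.0747 to 0.351. Fzd8, Wif1 and Lgr5 also lost it without naïve mice 16 to 18, and Fzd2 kept it in both fits.

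Lef1 was -2.59 (limma adjusted p = 0.000993) and -1.84 (limma adjusted p = 0.0156) from naïve skin with IMO-3100 and IMO-8400. Without naïve mice 16 and 17 the call held for IMO-3100 and not for IMO-8400, and with the hair list as a covariate it held for neither (-0.98 and -0.45, limma adjusted p = 0.113 and 0.492). Sfrp4, not called in saline mice, was -1.24 with IMO-8400 (limma adjusted p = 0.0238), where IMO-8400 mice read 8.74, 8.63, 8.61, 9.54 and 9.39 and naïve mice 8.60, 10.64, 10.38, 10.67 and 10.84. Leaving out any of 6 single mice ended that call, IMO-8400 mice 1, 2 and 3 and naïve mice 17, 19 and 20 (limma adjusted p = 0.000409 to 0.0979 over all alternatives). Wnt16 was 1.96 above naïve skin with IMO-8400 (limma adjusted p = 0.00236), and all 5 IMO-8400 mice were above all naïve mice. The difference was 1.64 without naïve mice 16 and 17.

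Pathway genes outside the families were counted from lists, beside the 8.92% of all tested probe-sets that were lower in saline than in naïve skin. Of 15 tested receptor and secretion genes, 5 fell and none rose by limma (0 at an unadjusted p under 0.05). They were Rspo3 (-1.73), an R-spondin and so a ligand of the Lgr receptors, Tspan12 (-1.62), a partner of Fzd4, and Lgr4 (-1.37), Ror2 (-1.34) and Ror1 (-1.10). Without naïve mice 16 and 17, Rspo3 (-1.42), Tspan12 (-1.96) and Lgr4 (-1.13) kept the call, and Ror2 (-0.91) and Ror1 (-0.72) did not. Rspo1 (-1.01) was called lower only without those mice. Of 24 cytoplasmic and nuclear genes 3 fell, a share near that of all tested: Tle1 (-1.45), Tcf7l1 (-1.19) and Csnk1e (-1.16). Without those mice Tle1 (-1.55) kept the call, and Tcf7l1 (-0.97) and Csnk1e (-0.60) did not.

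Of 22 targets and other inhibitors 10 fell and 1 rose. Msx2, Msx1 and Edar, which hair follicles express, were below 3 in every saline mouse and at least 5.92-fold, 3.22-fold and 3.13-fold lower. Bambi, a BMP and activin pseudoreceptor, differed by -2.22 and Nkd2, an inhibitor of Wnt signalling inside the cell, by -2.16, with saline means above background. Without naïve mice 16 and 17, Edar and Nkd2 (-1.26) kept the call, and Msx2 (limma adjusted p = 0.114), Msx1 (under 2-fold) and Bambi (-0.53) did not. Draxin, an axon guidance protein that antagonises Wnt signalling, rose at least 3.10-fold from naïve values that were all below 3, and was called without those mice too. Only without them, Ccn4 was called higher (2.20, limma adjusted p = 0.00191) and Frzb lower (-1.15). The list then held 2 genes that rose and 7 that fell. Of 15 planar polarity and calcium genes 1 fell, again a share near that of all tested, Vangl2 (-1.45, and -1.11 without those mice). The 4 list medians were -0.68, -0.24, -0.92 and -0.04, against -0.04 over all tested.

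Against saline, 2.69% and 4.46% of all tested rose and 3.73% and 3.59% fell with IMO-3100 and IMO-8400. With IMO-3100, 1 of 22 targets and other inhibitors rose and 2 fell. With IMO-8400, 1 of these 22 rose and 1 fell, and 1 of 15 receptor and secretion genes and 2 of 24 cytoplasmic and nuclear genes rose. No other listed gene was called. Sostdc1, an extracellular inhibitor of Wnt and BMP signalling, rose with IMO-3100 (1.05) and IMO-8400 (1.07), and Draxin fell at least 3.10-fold with each, to values below 3 in every mouse. With IMO-3100, Ccn4 also fell (-2.09). With IMO-8400, Ror1 (1.32), Csnk1e (1.32) and Ctnnbip1 (1.10), an inhibitor of beta-catenin, rose. Between the agents, where 0.333% of all tested were higher with IMO-8400, 1 listed gene was called, Daam2 of the polarity arm, which was higher by 1.17 with IMO-8400.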

How the data were processed

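Labelled RNA from skin, taken at the injection site in the IL-23 mice, was hybridised to 20 Affymetrix whole-genome mouse arrays. The authors checked the arrays with Harshlight and arrayQualityMetrics and deposited GCRMA log2 values (GCRMA version not given in the sources read). GCRMA corrects for background and normalizes across arrays, so that low probe-sets gather near 2 and their differences are compressed. The number of arrays limits the precision.

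Symbols came from the platform annotation, and all 84 member probe-sets were matched to RefSeq by Entrez ID, with 0 symbols changed. Of all probe-sets, 932 had several symbols and 9211 none, and were not named. Following the study's methods, limma 3.58.1 (R 4.3.3) was run, as 1 model of 4 group means, on probe-sets that exceeded 2 on 3 or more arrays and whose SD was over 0.1. A probe-set was called at a Benjamini-Hochberg FDR under 0.05 over all 30960 and a fold over 2. Of the 63 tested members, 56 would pass this filter in the IL-23 arrays alone, and 7 passed only with the naïve arrays. SDs, intervals and adjusted p-values are over mice, and intervals are 95%. A bound ("at least") sets the dimmer group at 3. Levels of different probe-sets were not compared.

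The members, the lists of pathway and marker genes and the alternatives were chosen with earlier results of these data known. Named with values were genes called at their brightest probe-set, up to 6 per role and direction. For some genes, such as Fzd3, other probe-sets were named where their call differed. Nkd2 was added after its value was seen. The labels name IMO-3100 and IMO-8400, while the series record speaks of doses of 1 antagonist, and the labels were followed. The replicate numbers differ between groups and pair no mice. The code was tested on simulated data.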

Additional observations from a re-analysis of the deposited data

Results flagged for a closer look

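Among 72 groups of 5 mice tested for a value apart from the rest, of which chance marks about 1 in 20, 1 stood out. Dkk3 (1417312_at) read 11.01 in IMO-3100 mouse 6, with the next mouse of that group at 10.30. Lgr5 at 1444519_at differed between the antagonists by 2.27 (log2, IMO-8400 minus IMO-3100, limma adjusted p = 0.0141), while the brighter Lgr5 probe-set differed by 1.02 (limma adjusted p = 0.184).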

How the results depend on the processing

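Of 42 pairs of a named gene and a comparison, 15 held their call under every alternative, 27 lost it under at least 1, and 0 turned in direction. Scaling to a common 75th percentile or by quantiles changed no count of called members by over 1.5 times. With the FDR alone, members called rose from 3 to 10 for IMO-3100 against saline and from 7 to 15 for IMO-8400 against saline. They rose from 1 to 3 between the antagonists and from 12 to 19 for IMO-8400 against naïve. Calls over all 30960 tested probe-sets rose as well, to 3835 higher and 4449 lower for IMO-3100 against saline. For IMO-8400 they rose to 4566 higher and 4081 lower against saline, and to 2757 and 2735 against naïve. Between the antagonists they rose to 563 and 600. With only the 2 groups compared, the member count for IMO-8400 against naïve was 5. Without naïve mice 16 and 17 the counts for saline, IMO-3100 and IMO-8400 against naïve were 16, 15 and 6 (from 30, 23 and 12), without mouse 18 as well 16, 8 and 4, and with the mean of the hair list as a covariate 12, 5 and 4. Leaving out 1 mouse at a time gave 20 to 36 for saline against naïve, 2 to 5 for IMO-3100 and 6 to 10 for IMO-8400 against saline, 1 between the antagonists, and 20 to 26 and 9 to 19 for IMO-3100 and IMO-8400 against naïve. The count of 19 came without naïve mouse 19, and that of 5 without IMO-3100 mouse 9. No paired analysis was possible because the groups share no replicate numbers. With 5 mice a group and naïve mice that differed widely in hair genes, a p that missed the threshold does not show that a gene did not differ.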
